A study of Mus musculus and Homo sapiens with 23 samples.

Results

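The genes of glycolysis and the pentose phosphate pathway were followed here as a fixed set of 37 mouse genes. They were chosen by function, with earlier results of these data known. The set covers glucose uptake, each enzyme from hexokinase to lactate dehydrogenase, lactate export and the entry of pyruvate into mitochondria. It also holds 6 genes of both arms of the pentose phosphate pathway, without Rpe and H6pd. All 37 were found among the 21598 genes of the RNA tables, in 56 transcript rows, of which 0 had a failed estimate. The cells were BV2, a mouse microglial line immortalised with a retrovirus that carries raf and myc oncogenes. There were 2 groups with 1 library each: unstimulated BV2 cells, and BV2 cells stimulated for 3 h with lipopolysaccharide (LPS), an outer membrane component of Gram-negative bacteria that is read by the receptor Tlr4. The labels give no genetic change and no other agent for either group, with the LPS dose and the BV2 culture conditions not given in the sources used here. Of the series, the other 21 of 23 samples hold chromatin data and were not analysed here.

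Glycolysis splits glucose into pyruvate and yields ATP and NADH. Pyruvate is then reduced to lactate and exported, or carried into mitochondria, where the pyruvate dehydrogenase complex turns it into acetyl-CoA. The pentose phosphate pathway branches off at glucose phosphate: its oxidative arm makes NADPH, the reductant used by the NADPH oxidase, by glutathione recycling and by lipid synthesis, and its non-oxidative arm interconverts sugar phosphates and supplies ribose. Macrophages and microglia are known for raising glycolytic flux when they meet LPS, and much of glycolytic control acts on enzyme activity, through allosteric effectors and phosphorylation, as well as on transcript level.

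Levels are FPKM, fragments scaled to transcript length and to library size, so genes of different length can be set side by side. Ranges in brackets after a level are the 95% bounds deposited for that library. They cover counting and the assignment of fragments within the library and not the spread between cultures, which was not measured. There was thus no test and no replicate check, and every difference compares these 2 libraries. A gene was counted if it reached 1 FPKM in either library, and is said to have risen or fallen only if log2(FPKM + 1) moved by at least 1, a fold of 2 on that scale. This number is called the change below, always LPS minus unstimulated. Whether the deposited intervals of the libraries were apart was noted on its own. In bulk RNA, fewer cells that express a gene and less RNA per cell cannot be told apart.

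These checks went the way of the labels. The summed FPKM of 6 LPS response genes (Tnf, Il1b, Il6, Nos2, Acod1 and Ccl5) was 23.6 without and 6962 with LPS. Of 12 microglia and macrophage markers, 10 reached 1 FPKM in at least 1 library, Cx3cr1 stayed under it and Cd68 was not matched to a row. P2ry12 (1.19 and 0.223 FPKM) and Tmem119 (2.16 and 0.601 FPKM) reached it without LPS only. Of the markers of neurons, astrocytes, oligodendrocytes, fibroblasts and lymphocytes, 0 reached 1 FPKM, and all 6 of the neuronal markers were listed at 0 in both libraries. The deposited intervals imply 13800000 fragments without LPS and 16900000 with it, and from 24.8 (Eno1 without LPS, whose locus holds a further row) to 65881 (Pkm with LPS) for a counted glycolysis or pentose gene. An interval also widens where the assignment of fragments is uncertain, so 24.8 is not a fragment count for Eno1. With LPS the same reading gave 7989 for Eno1.

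Most genes of the pathway stayed within a 2-fold change through 3 h of LPS. Of the 37 genes, 33 were counted, and of these 3 rose, 2 fell and 28 stayed within a 2-fold change. The genes that rose were the hexokinases Hk1 and Hk3 and the pentose phosphate enzyme gene Pgd, and those that fell were the lactate transporter Slc16a1 and the pyruvate dehydrogenase kinase Pdk1. That is 9.09% of the counted pathway genes higher and 6.06% lower, where 8.54% of all 10035 counted genes rose and 12.4% fell, so the shares lay near or under the background. The median change of the 33 genes was 0.11, with a range from -1.33 to 1.47, and that of all counted genes was -0.24. The sign of the median depended on scaling: it was -0.10 on a TPM scale and -0.0298 with quantile-normalised libraries, and 17 of the 33 genes changed sign over 8 settings. On the deposited scale, intervals were apart for 15 of the 33 with the LPS library higher (45.5%, beside 25.2% of all counted genes). They were apart for 10 with it lower (30.3%, beside 48.5%). They overlapped for 8, beside 2646 of all 10035 counted genes. All 5 genes past the size rule had separate intervals, as did nearly all genes past it. Among all counted genes, 857 rose and 1249 fell, and 2085 of these had separate intervals. On a TPM scale 1 gene rose in place of 3, and with a pseudocount of 5 the number that fell was 1. The 37 genes together held 1.38% of the summed FPKM of all genes in the unstimulated library and 1.32% in the LPS library.

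**Figure D1:**
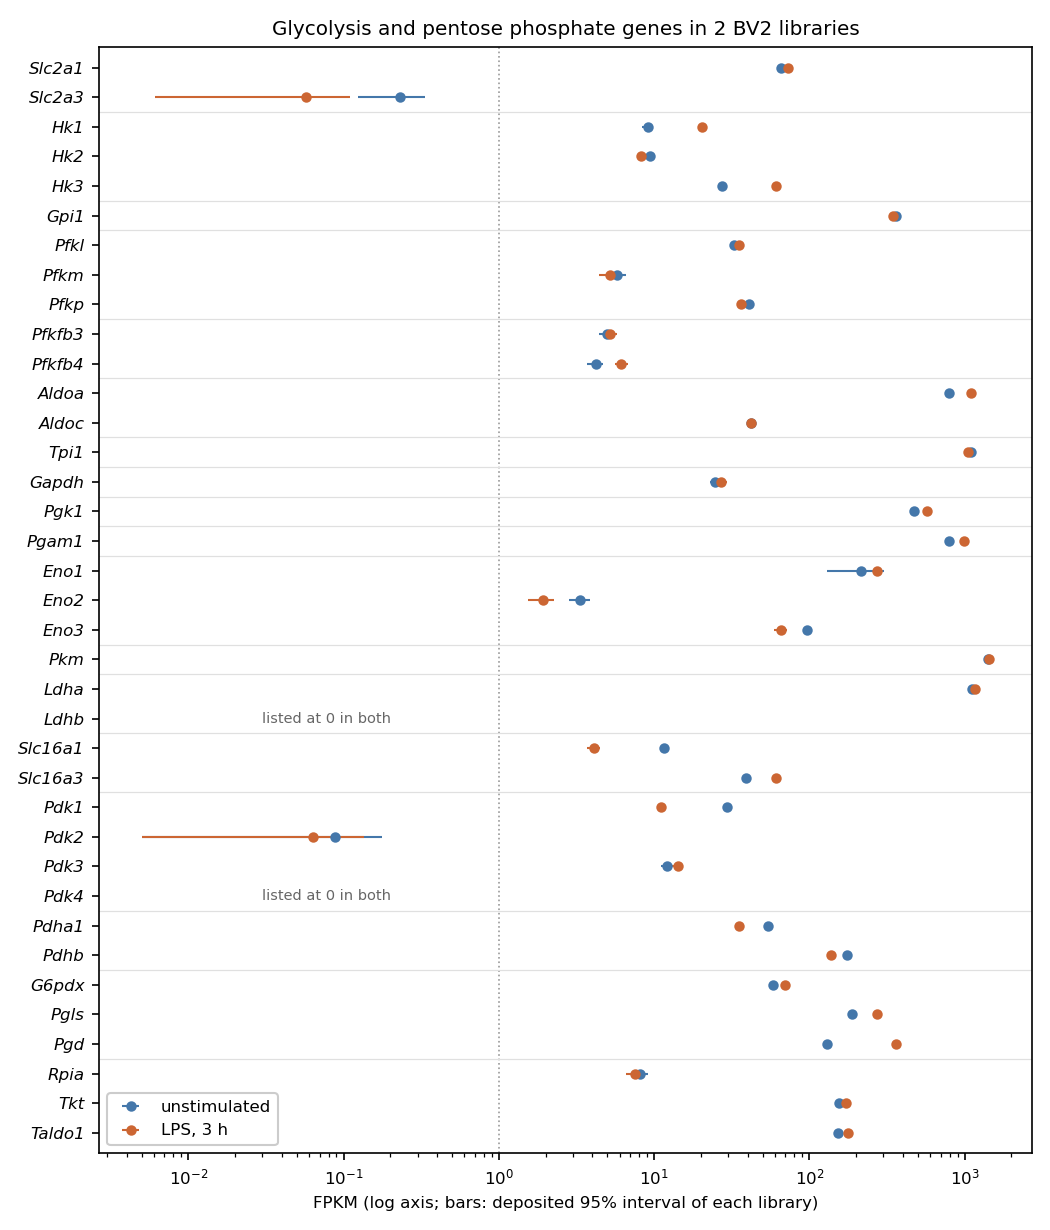
FPKM (log axis) of each of the 37 genes in the unstimulated (blue) and the LPS library (orange), in pathway order, with the deposited 95% interval of each library as a bar and a dotted line at 1 FPKM. Most pairs of points lie on top of each other, Hk1, Hk3 and Pgd lie apart to the right with LPS and Slc16a1 and Pdk1 to the left, and Ldhb and Pdk4 are listed at 0 in both. Slc2a3, under 1 FPKM in both libraries, also lies apart to the left with LPS (0.230 and 0.0577 FPKM).

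**Figure D2:**
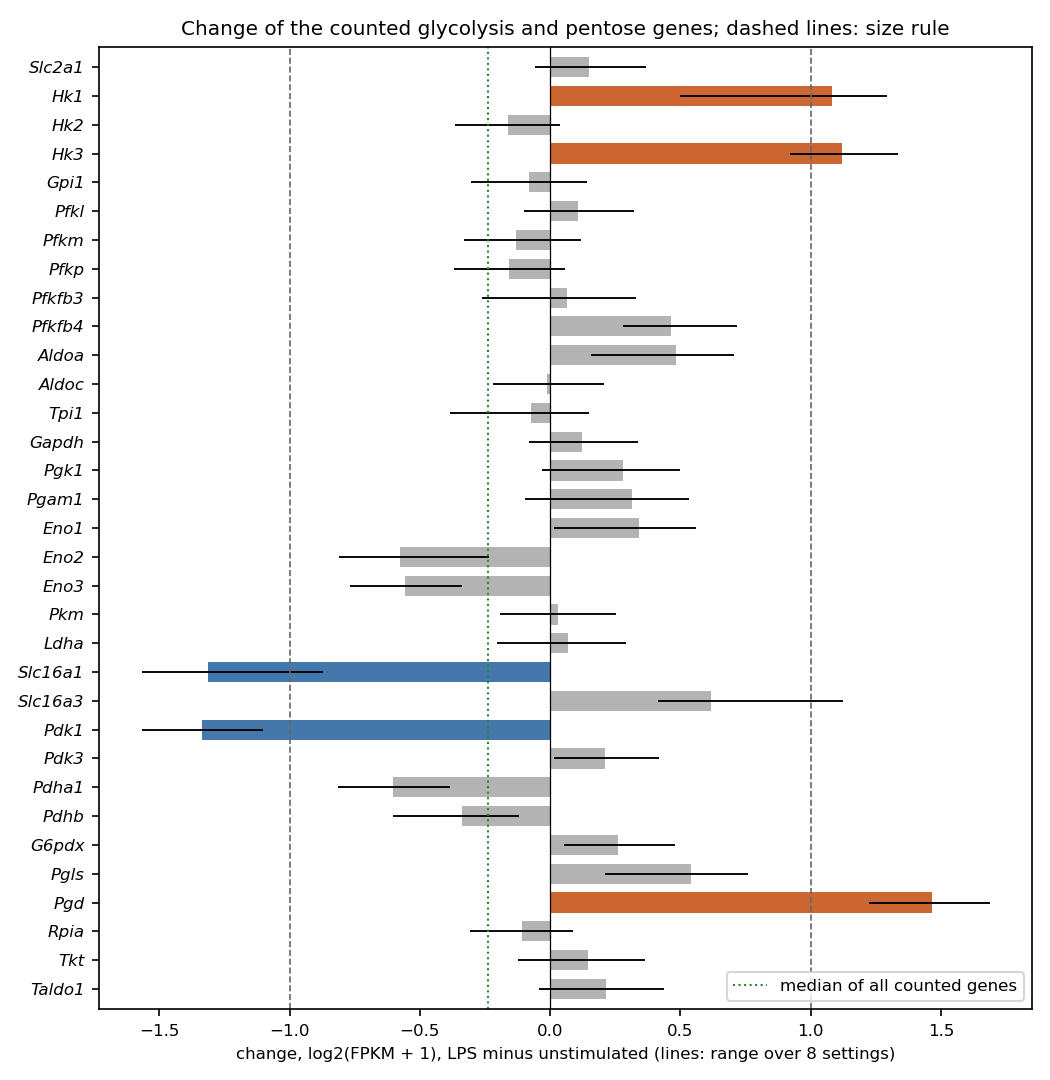
Change in log2(FPKM + 1), LPS minus unstimulated, of the 33 counted genes, with thin lines for the range over 8 settings of scaling, pseudocount and row choice, dashed lines at the size rule and a dotted line at the median of all counted genes (-0.24). The bars of Pgd (1.47) and Pdk1 (-1.33) stay past the size rule over their whole range, those of Hk1, Hk3 and Slc16a1 do not.

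The start regions of the 5 genes past the size rule are shown because their transcript levels moved and because hypoxia-inducible factors and E-box factors, known regulators of glycolytic genes, and NF-kB, a factor activated by LPS, bind short motifs of the kind searched here. Each line gives the 250 bases before a RefSeq start site, 5′ to 3′ on the strand of the gene, from the RefSeq table of build GRCm38.p6. Capitals mark matches, on either strand, to ACGTG and GCGTG (the core letters of the hypoxia response element), to CACGTG (the E-box, which holds ACGTG on both strands) and to the NF-kB site. Where a gene had several windows, the one nearest in span to the deposited transcript row is shown, and for Hk1 both, since its 2 rows start at different sites.
Hk1, start of the shorter row, chr10:62340422-62340671, minus strand: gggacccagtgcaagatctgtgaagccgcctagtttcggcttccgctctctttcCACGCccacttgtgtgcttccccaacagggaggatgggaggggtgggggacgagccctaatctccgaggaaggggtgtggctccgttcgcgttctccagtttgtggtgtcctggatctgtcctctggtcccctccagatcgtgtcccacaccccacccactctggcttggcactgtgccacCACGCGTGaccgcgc
Hk1, start of the longer row, chr10:62379909-62380158, minus strand: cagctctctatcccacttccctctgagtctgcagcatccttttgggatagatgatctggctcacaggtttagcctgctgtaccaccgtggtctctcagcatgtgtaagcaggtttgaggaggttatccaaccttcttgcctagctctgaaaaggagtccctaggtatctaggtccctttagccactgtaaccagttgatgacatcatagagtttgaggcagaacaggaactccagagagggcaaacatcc
Hk3, chr13:55021386-55021635, minus strand: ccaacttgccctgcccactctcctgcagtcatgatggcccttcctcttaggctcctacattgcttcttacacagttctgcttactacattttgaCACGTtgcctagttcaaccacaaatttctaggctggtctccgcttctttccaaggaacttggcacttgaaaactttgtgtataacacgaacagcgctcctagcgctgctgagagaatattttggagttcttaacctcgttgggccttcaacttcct
Pgd, chr4:149166706-149166955, minus strand: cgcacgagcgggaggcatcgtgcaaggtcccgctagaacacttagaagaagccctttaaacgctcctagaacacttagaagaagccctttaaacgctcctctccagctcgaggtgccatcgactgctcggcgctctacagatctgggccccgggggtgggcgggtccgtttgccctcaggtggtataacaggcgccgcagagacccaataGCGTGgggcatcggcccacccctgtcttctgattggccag
Slc16a1, chr3:104638414-104638663, plus strand: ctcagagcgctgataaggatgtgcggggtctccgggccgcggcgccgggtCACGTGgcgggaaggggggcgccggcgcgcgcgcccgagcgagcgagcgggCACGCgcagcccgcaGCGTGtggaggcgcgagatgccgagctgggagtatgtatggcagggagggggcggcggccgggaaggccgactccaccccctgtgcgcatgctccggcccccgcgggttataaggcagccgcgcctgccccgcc
Pdk1, chr2:71872974-71873223, plus strand: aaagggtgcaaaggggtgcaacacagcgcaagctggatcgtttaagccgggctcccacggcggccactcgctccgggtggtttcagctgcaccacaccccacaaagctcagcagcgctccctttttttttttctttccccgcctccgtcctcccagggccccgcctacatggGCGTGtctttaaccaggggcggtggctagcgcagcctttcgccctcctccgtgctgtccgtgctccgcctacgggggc

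The shorter Hk1 row's window held GCGTG with its first base 196, 15 and 12 bases before the start, the last 2 of them on opposite strands and overlapping. The window of the longer Hk1 row held 0 matches to any of the 4 motifs. The Hk3 window, at the start of row NM_001033245, held ACGTG 156 bases before that start. Its row NM_001206390, 58.0% of Hk3 with LPS, starts elsewhere (55122180 beside 55122746 in mm9) and had no window. Pgd held GCGTG 40 bases before its start and Pdk1 held GCGTG 78 bases before its start. Slc16a1 held the E-box CACGTG 200 bases before its start, and GCGTG at 149 and 134. The NF-kB site matched in 0 of these stretches. Over the whole windows, which add 50 bases after the start, 36 of the 37 genes had 51 windows, some of them overlapping. ACGTG was in 43.1% of these and in 19.6% of all 32851 windows of the table, GCGTG in 60.8% and 32.4%, CACGTG in 9.80% and 7.15%, and the NF-kB site in 9.80% and 8.46%. A match is a description of letters and was not tested as a binding site.

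Glucose enters through facilitative transporters, and Slc2a1 (GLUT1) carried nearly all of the uptake transcripts counted here. Slc2a1 read 65.2 FPKM (63.0 to 67.5) without and 72.5 FPKM (70.2 to 74.8) with LPS, a ratio of 1.11 with separate intervals and a change of 0.15, well inside the size rule. Slc2a3 (GLUT3), the high-affinity transporter of neurons, was not counted, at 0.230 FPKM without and 0.0577 FPKM with LPS.

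The hexokinases trap glucose in the cell by phosphorylating it, and both genes of glycolysis that rose belong to this step. Hk3, the hexokinase typical of myeloid cells, was the most abundant of the 3 and rose from 27.5 FPKM (25.8 to 29.4) to 61.0 FPKM (58.5 to 63.4). That is 2.21-fold higher (95% interval 2.05 to 2.40), a change of 1.12. Hk1, which binds to mitochondria and is widely expressed, rose from 9.08 FPKM (8.36 to 9.79) to 20.3 FPKM (19.0 to 21.6), which is 2.24-fold higher (2.02 to 2.47) and a change of 1.08. Hk2, the isoform that is inducible in many tissues, did not pass the size rule: it read 9.36 FPKM (8.79 to 9.92) without and 8.26 FPKM (7.74 to 8.78) with LPS, a change of -0.16. In the unstimulated library Hk1 and Hk2 were thus level, and in the LPS library Hk1 stood well above Hk2 with separate intervals. On a TPM scale neither Hk3 (change of 0.92) nor Hk1 (0.91) passed the size rule, and with a pseudocount of 5 Hk1 did not (0.85). The step as a whole went from 46.0 to 89.5 FPKM, a ratio of 1.95 (1.84 to 2.06).

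Within the step, the share of Hk2 went from 20.4% to 9.22% and that of Hk3 from 59.9% to 68.1%, while Hk1 held 19.7% and 22.7%. With only the highest row of each gene, Hk3 held 44.2% and 64.0%, Hk2 30.2% and 15.0%, and Hk1 25.6% and 21.1%. The share of Hk3 was thus higher and that of Hk2 lower with LPS either way, while that of Hk1 turned from higher to lower. The Hk1 locus (chr10:61731603-61842656 in build mm9) and the Hk3 locus (chr13:55107346-55122746) each overlap another gene in the tables. Hk1os, within Hk1, read 0.516 FPKM without and 1.35 FPKM with LPS, and Unc5a, which overlaps Hk3, read 0.133 and 0.0690 FPKM. The kit is strand-specific, with the use of strand in counting not given in the sources used here.

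Between the 2 deposited rows of Hk1 its rise was unequal; the rows share their far end and start 39487 bases apart. The longer row, NM_010438, read 1.14 FPKM (0.825 to 1.46) without and 8.68 FPKM (7.73 to 9.63) with LPS, a ratio of 7.61 (5.64 to 10.2). The shorter row, NM_001146100, read 7.94 FPKM (7.30 to 8.58) and 11.6 FPKM (10.8 to 12.5), a ratio of 1.46 (1.31 to 1.63). The longer row thus went from 12.6% to 42.7% of the Hk1 total, and with the shorter row alone Hk1 would not pass the size rule (change of 0.50). Its window is the one above with 0 motif matches. In Hk3 the row NM_001206390 went from 13.7 to 35.3 FPKM, a ratio of 2.58 (2.34 to 2.85), and NM_001033245 from 13.2 to 23.6 FPKM, a ratio of 1.79 (1.60 to 2.00). Rows of 1 gene share most of their exons, so how fragments are divided among them rests on the authors' assignment.

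**Figure D3:**
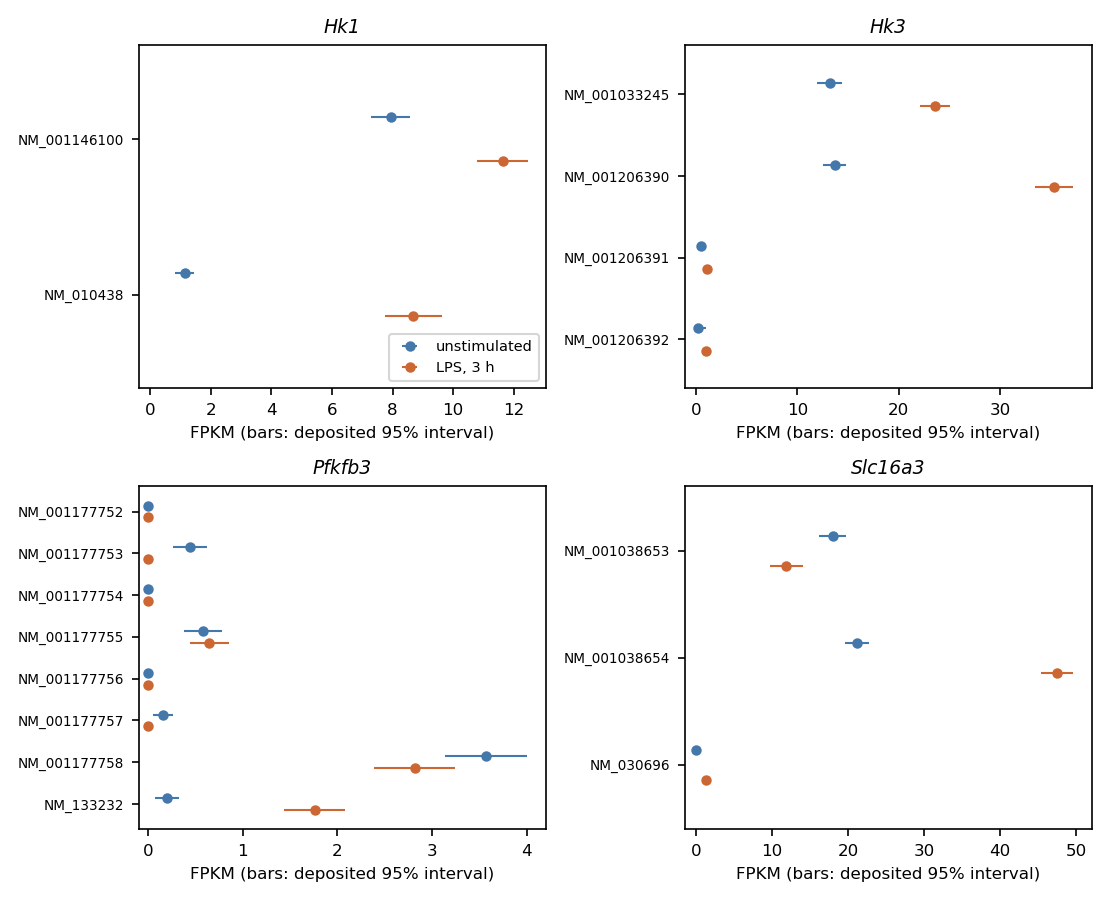
FPKM of each deposited transcript row of Hk1, Hk3, Pfkfb3 and Slc16a3 in the unstimulated (blue) and the LPS library (orange), with the deposited 95% interval as a bar. NM_010438 of Hk1 (1.14 and 8.68 FPKM) and NM_133232 of Pfkfb3 (0.20 and 1.76 FPKM) lie far higher with LPS, and of the 2 larger Slc16a3 rows 1 is higher and 1 lower with LPS.

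Glucose phosphate is isomerised and then committed to glycolysis by phosphofructokinase 1, the main control point of the pathway. Gpi1, the isomerase, read 364 FPKM (359 to 369) without and 344 FPKM (339 to 349) with LPS, a change of -0.08. The 3 phosphofructokinase genes summed to 79.2 FPKM without and 76.8 FPKM with LPS, a ratio of 0.970 (0.935 to 1.01). The liver-type gene Pfkl read 32.7 and 35.3 FPKM with overlapping intervals, and the platelet-type gene Pfkp read 40.7 and 36.3 FPKM with separate ones. The muscle-type gene Pfkm was the minor form at 5.76 and 5.17 FPKM. Pfkp held 51.4% of the step without and 47.3% with LPS and Pfkl 41.4% and 46.0%, so the order of these 2 rests on a gap of few FPKM in the LPS library, where their intervals overlap. Pitrm1, which overlaps Pfkp, read 38.3 and 33.0 FPKM, and Senp1, which overlaps Pfkm, 2.84 and 2.19 FPKM.

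The PFKFB enzymes set the level of fructose bisphosphate isomer that activates phosphofructokinase 1, and both of their genes followed here were low. Pfkfb3, whose enzyme strongly favours synthesis of the activator and which is known to be induced in activated macrophages, read 4.95 FPKM (4.42 to 5.48) without and 5.22 FPKM (4.65 to 5.80) with LPS. Pfkfb4 read 4.20 FPKM (3.70 to 4.69) and 6.16 FPKM (5.58 to 6.75), a ratio of 1.47 (1.26 to 1.71) and a change of 0.46. The intervals of Pfkfb3 overlapped and those of Pfkfb4 were apart, and neither passed the size rule. Outside the set, Pfkfb1 read 3.66 and 3.26 FPKM with overlapping intervals, and Pfkfb2 fell from 2.05 to 0.179 FPKM. Rows of Pfkfb3 differed more than its total. Its row NM_133232 went from 0.20 FPKM (0.0777 to 0.323) to 1.76 FPKM (1.44 to 2.08), a ratio of 8.80 (4.65 to 16.7), and from 4.05% to 33.7% of the gene's total. The main row, NM_001177758, read 3.57 and 2.82 FPKM with overlapping intervals, and NM_001177753 read 0.444 FPKM without LPS and under 0.0174 FPKM, the upper bound of its interval, with LPS.

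The lower steps of glycolysis, from aldolase to lactate dehydrogenase, held the most abundant transcripts of the set, and 0 of them passed the size rule. Aldoa, the main aldolase, read 788 FPKM (777 to 799) without and 1103 FPKM (1090 to 1115) with LPS, a ratio of 1.40 (1.37 to 1.42) and a change of 0.48. It was the largest change of these steps in the upward direction, and its intervals were apart. Aldoc, the brain-type aldolase used elsewhere as an astrocyte marker, read 42.2 and 41.9 FPKM with overlapping intervals, beside astrocyte markers that summed to 0.180 and 0.0673 FPKM. Triosephosphate isomerase, Tpi1, read 1101 FPKM without and 1046 FPKM with LPS, a ratio of 0.951. Pgk1, the phosphoglycerate kinase that makes the first ATP of the pathway, read 470 and 571 FPKM (change of 0.28), and the mutase Pgam1 read 797 and 990 FPKM (change of 0.31). The intervals of Tpi1, Pgk1 and Pgam1 were all apart.

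Gapdh, which oxidises glyceraldehyde phosphate and is widely used as a reference gene, was listed at 24.8 FPKM (22.7 to 26.9) without and 27.2 FPKM (25.0 to 29.3) with LPS. These values placed it at rank 2539 and 2446 among all genes, far under its neighbours in the pathway, Tpi1 and Pgk1. The mouse genome holds many near-identical copies of Gapdh, with the handling of fragments that match several places not given in the sources used here, so its level is uncertain. Copies also exist for other genes of these steps, among them Aldoa, whose copy Aldoart1 read 1.77 and 2.27 FPKM, and Eno1, whose copy Eno1b has a row on another chromosome that read 131 FPKM (128 to 135) without and 162 FPKM (158 to 166) with LPS. That Eno1b row is large beside Eno1 itself, and it is not part of the enolase total given here, so the enolase total and its shares are uncertain.

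Enolase, which makes phosphoenolpyruvate, was represented mainly by the ubiquitous gene Eno1. Eno1 read 216 FPKM (129 to 303) without and 274 FPKM (267 to 280) with LPS, and the wide interval of the unstimulated library covers the LPS value. The row of Eno1b at the same locus had a status other than OK and was left out of all totals. It was listed at 72.5 FPKM (0 to 184) and 84.6 FPKM (0 to 107). With it, the 2 rows at the locus would sum to 289 and 358 FPKM. Fragments were thus split between these rows without much certainty. Eno3, the muscle-type gene, read 96.6 FPKM (92.3 to 101) without and 65.3 FPKM (59.2 to 71.5) with LPS, a ratio of 0.676 (0.609 to 0.751) and a change of -0.56. Eno2, the neuronal type, read 3.34 and 1.91 FPKM, a change of -0.58, beside neuronal markers that were listed at 0. Eno3 held 30.6% of the step without and 19.2% with LPS, but its interval of 22.1% to 39.0% without LPS carries the uncertainty of Eno1.

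Pyruvate kinase and lactate dehydrogenase, which end aerobic glycolysis, were the most abundant steps in both libraries. Pkm read 1406 FPKM (1394 to 1417) without and 1436 FPKM (1425 to 1447) with LPS, at rank 62 and 73 among all genes and a change of 0.03. The tables hold 1 row for Pkm, so its splice forms were not told apart. Ldha, whose subunit is tuned to making lactate, read 1110 FPKM (1098 to 1122) and 1165 FPKM (1153 to 1177), a change of 0.07. Ldhb, whose subunit is tuned to using lactate, was listed at 0 in both libraries, so Ldha carried the whole of this step. From uptake to lactate dehydrogenase, 21 of 23 genes were counted, of which 2 rose (9.52%, beside 8.54% of all counted genes) and 0 fell (beside 12.4%), with a median change of 0.07, so the share that rose lay near the background.

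Lactate leaves the cell with a proton through monocarboxylate transporters, and of the 2 genes of this step 1 fell and the other read higher. Slc16a1 (MCT1), a transporter that works in both directions, fell from 11.6 FPKM (10.9 to 12.4) to 4.10 FPKM (3.69 to 4.51). It was 2.84-fold lower with LPS (95% interval 2.53 to 3.20), a change of -1.31, and lies at chr3:104442591-104462385 in mm9. With a pseudocount of 5 the change was -0.87, inside the size rule. Slc16a3 (MCT4), the exporter of highly glycolytic cells, read 39.2 FPKM (36.8 to 41.6) without and 60.6 FPKM (57.5 to 63.7) with LPS, a ratio of 1.55 (1.43 to 1.68) and a change of 0.62. The share of Slc16a1 in the step went from 22.9% to 6.33%, or from 35.4% to 7.94% with only the highest row of each gene. The step total was 50.8 FPKM without and 64.7 FPKM with LPS.

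Rows of Slc16a3 also differed in direction. NM_001038654 went from 21.2 FPKM (19.6 to 22.8) to 47.5 FPKM (45.4 to 49.6), a ratio of 2.24 (2.05 to 2.44), and from 54.2% to 78.4% of the gene. NM_001038653 went from 18.0 FPKM (16.1 to 19.8) to 11.9 FPKM (9.69 to 14.0), a ratio of 0.660 (0.536 to 0.813). With only its highest row the gene would pass the size rule, at a change of 1.13. Bsg (basigin), the chaperone that brings both transporters to the membrane, read 356 FPKM without and 547 FPKM with LPS, a ratio of 1.54 (1.5 to 1.58) and a change of 0.62. Emb, the other counted gene in the list of monocarboxylate transport and its chaperones, went the other way. It read 170 FPKM without and 120 FPKM with LPS, a ratio of 0.704 (0.682 to 0.727) with separate intervals.

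**Figure D4:**
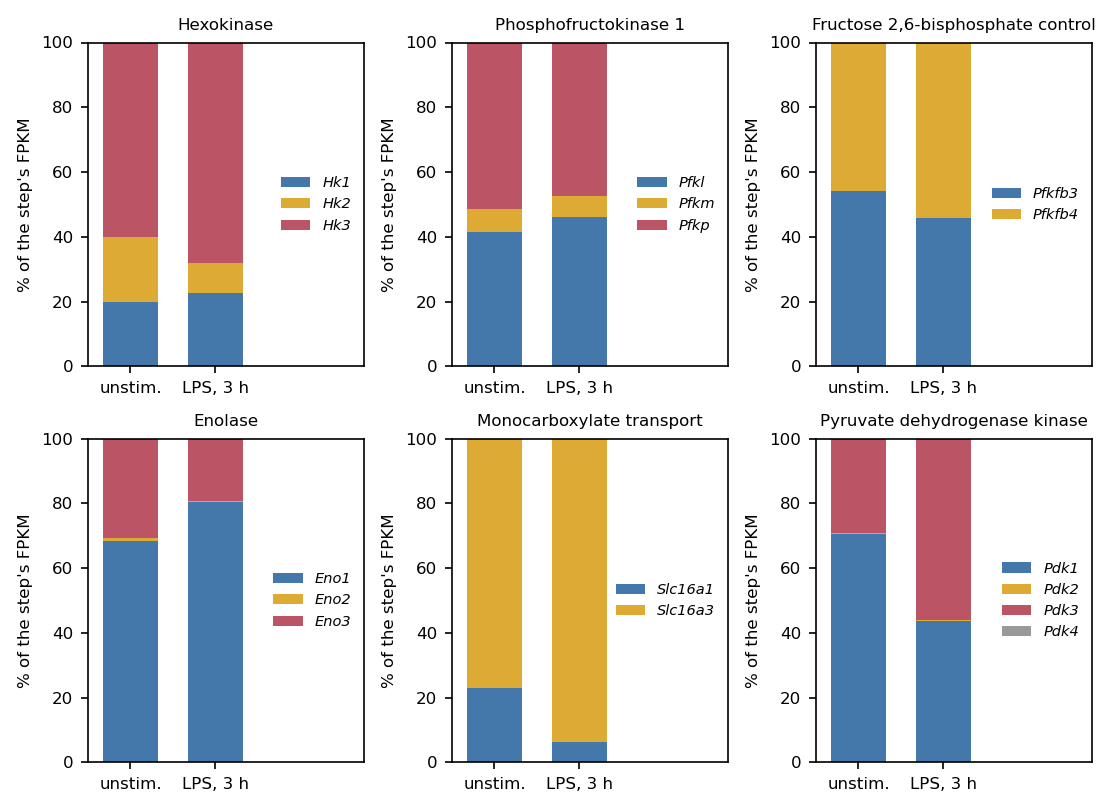
Share of each gene in the summed FPKM of its step, in percent, for 6 steps with several isoform genes, in the unstimulated (unstim.) and the LPS library. Hk2 shrinks from 20.4% to 9.22% of hexokinase, Slc16a1 from 22.9% to 6.33% of monocarboxylate transport and Pdk1 from 70.6% to 43.6% of pyruvate dehydrogenase kinase, while both phosphofructokinase bars look alike.

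Entry of pyruvate into the citric acid cycle is gated by the pyruvate dehydrogenase complex, which the PDK kinases switch off by phosphorylating its E1 alpha subunit. Pdk1, a kinase gene known as a hypoxia target, fell from 29.4 FPKM (28.4 to 30.5) to 11.1 FPKM (10.4 to 11.7). It was 2.66-fold lower (2.49 to 2.84), a change of -1.33, and lies at chr2:71711329-71741915 in mm9. Pdk3 read 12.2 FPKM (11.1 to 13.3) without and 14.2 FPKM (13.1 to 15.4) with LPS, with overlapping intervals. The leading kinase gene therefore differed between the libraries: Pdk1 held 70.6% of the step without LPS and Pdk3 56.1% of it with LPS. Pdk2 was not counted, at 0.0884 and 0.0631 FPKM, and Pdk4, the kinase linked to fasting and fatty acid use, was listed at 0 in both. The kinase step summed to 41.7 FPKM without and 25.4 FPKM with LPS, a ratio of 0.608 (0.571 to 0.649).

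The genes of the E1 subunits were also lower with LPS, but inside the size rule. Pdha1 (E1 alpha) read 53.9 FPKM (52.0 to 55.9) and 35.2 FPKM (33.7 to 36.8), a ratio of 0.653 (0.617 to 0.691) and a change of -0.60. Pdhb (E1 beta) read 175 FPKM (170 to 180) and 138 FPKM (134 to 143), a ratio of 0.790 (0.757 to 0.824) and a change of -0.34. Intervals were apart for both. Map3k15, which overlaps Pdha1, read 5.70 and 2.80 FPKM.

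In the oxidative pentose arm, Pgd had the largest change of all 33 counted genes in the upward direction. Pgd encodes phosphogluconate dehydrogenase, which makes NADPH and ribulose phosphate, and lies at chr4:148524094-148540816 in mm9. It rose from 129 FPKM (126 to 133) to 359 FPKM (354 to 365), which is 2.78-fold higher (2.69 to 2.86) and a change of 1.47. G6pdx, the rate-limiting glucose phosphate dehydrogenase at the entry of the arm, read 58.1 FPKM (56.0 to 60.2) without and 69.8 FPKM (67.5 to 72.0) with LPS, a ratio of 1.20 (1.14 to 1.26). Pgls, the lactonase between them, read 188 FPKM (181 to 195) and 273 FPKM (265 to 282), a ratio of 1.46 (1.39 to 1.53) and a change of 0.54. All 3 had separate intervals with the LPS library higher, beside 25.2% of all counted genes. By the size rule 1 of the 3 rose, beside 8.54% of all counted genes. The arm summed to 375 FPKM without and 702 FPKM with LPS, a ratio of 1.87 (1.82 to 1.92), and Pgd went from 34.5% to 51.2% of it. Ikbkg, which overlaps G6pdx, read 0.969 and 3.09 FPKM.

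The non-oxidative arm, which returns pentoses to glycolysis, had 0 genes past the size rule. The transketolase gene Tkt read 156 FPKM (153 to 159) without and 173 FPKM (170 to 176) with LPS, and the transaldolase gene Taldo1 read 154 FPKM (148 to 159) and 178 FPKM (173 to 184). Both had separate intervals at ratios of 1.11 and 1.16. Rpia, the isomerase that makes ribose phosphate, was low at 8.16 and 7.49 FPKM with overlapping intervals. Over both arms, 6 of the 6 genes in the set were counted. Of these, 1 rose (16.7%, beside 8.54% of all counted genes) and 0 fell (beside 12.4%). Their median change was 0.24 beside -0.24 for all counted genes. With 6 genes, 1 call sets the share that rose. Rpe and H6pd, pentose arm genes outside the set, read lower with LPS. Rpe read 17.2 FPKM without and 12.1 FPKM with LPS, and H6pd 5.18 and 3.12 FPKM. Both had separate intervals and stayed inside the size rule.

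Around the pathway, a list of 103 further genes of sugar metabolism held 71 counted genes, of which 4 rose (5.63%, beside 8.54% of all counted genes) and 9 fell (12.7%, beside 12.4%), with a median change of -0.37. On the deposited scale, intervals were apart for 14 with the LPS library higher (19.7%, beside 25.2% of all counted genes). They were apart for 43 with it lower (60.6%, beside 48.5%). The count that fell depended on the setting: it was 5 with median scaling, 4 with quantile normalisation and 18 with rescaling to TPM. The count that rose was 2 with a pseudocount of 5, where Myc and Arrdc4 missed the size rule. The genes that rose were Slc2a6, Gpd2, Myc and Arrdc4. Slc2a6 (GLUT6), a hexose transporter of lysosomal membranes in macrophages, rose from 7.73 FPKM (6.87 to 8.58) to 180 FPKM (176 to 184), which is 23.3-fold higher (20.8 to 26.1), a change of 4.37. With LPS its transcript was thus above that of Slc2a1, and without LPS it was far under it. Gpd2, the mitochondrial glycerol phosphate dehydrogenase that passes electrons from cytosolic NADH to the respiratory chain, rose from 3.52 to 20.6 FPKM, 5.87-fold (5.21 to 6.62). Myc, a transcription factor that drives glycolytic genes, rose from 0.518 to 4.52 FPKM, 8.72-fold (5.58 to 13.6), a change of 1.86. These are levels listed for the mouse gene. The myc oncogene of the retrovirus was not measured separately, so the total myc RNA of the cells is not known here. Hif1a, the hypoxia-inducible factor subunit, named here after its values were seen, read 31.6 and 31.1 FPKM.

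Arrdc4 and Txnip, related arrestin-fold genes that are both known to respond to sugar phosphates and to curb glucose uptake, moved in opposite directions. Arrdc4 rose from 11.1 FPKM (9.59 to 12.6) to 24.8 FPKM (22.6 to 27.1), 2.24-fold (1.90 to 2.63), and Txnip fell from 139 FPKM (134 to 143) to 67.2 FPKM (64.7 to 69.6), 2.07-fold lower (1.97 to 2.17). The other genes that fell were Pfkfb2, Slc37a4, Phka2, Phkb, Pdpr, Shpk, Prps2 and Gnpda1. Of the 9 that fell, Gnpda1 alone passed the size rule in all 8 settings. Phka2 missed it in 4 of them, Txnip, Phkb and Pdpr in 3 each, Slc37a4 and Shpk in 2 each, and Pfkfb2 and Prps2 in 1 each. Pfkfb2, a further enzyme of the PFKFB family, fell from 2.05 to 0.179 FPKM, and Slc37a4, the glucose phosphate transporter of the endoplasmic reticulum, from 7.36 to 2.67 FPKM. Prps2, a phosphoribosyl pyrophosphate synthetase at the exit of the pentose pathway, fell from 8.05 to 2.54 FPKM, and Shpk, the sedoheptulose kinase that feeds its non-oxidative arm, from 1.70 to 0.269 FPKM. Gnpda1, which converts glucosamine phosphate to fructose phosphate, fell from 33.6 to 13.9 FPKM.

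**Figure D5:**
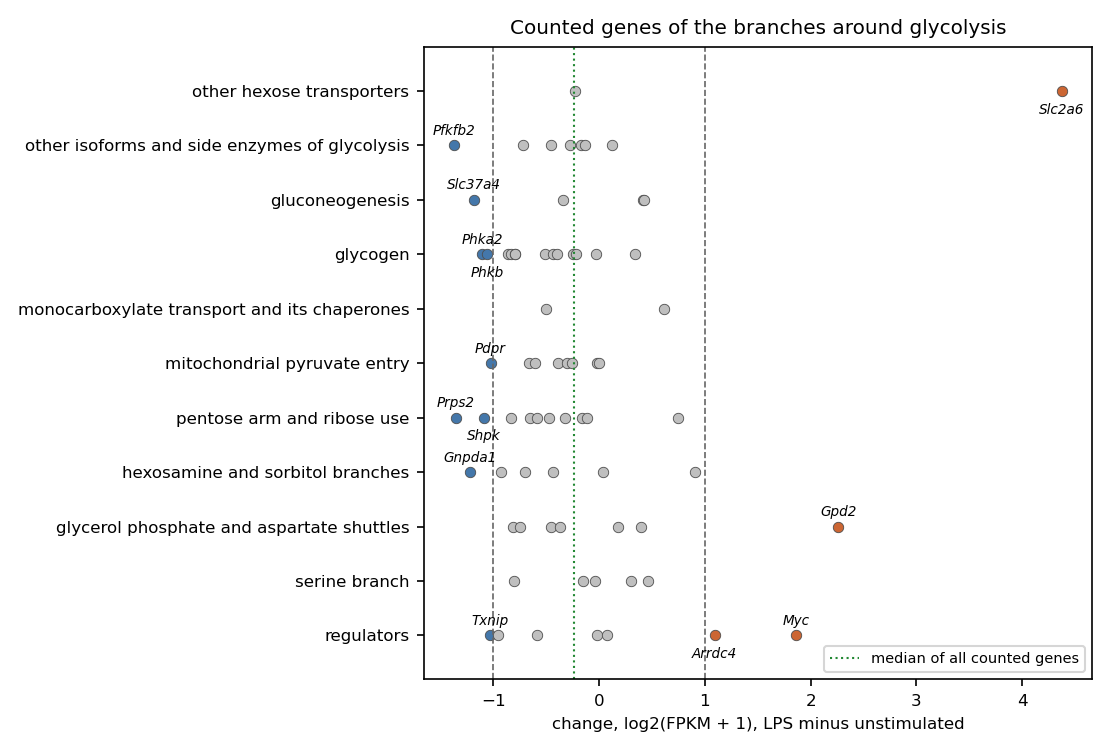
Change in log2(FPKM + 1), LPS minus unstimulated, of the 71 counted genes of 11 lists around glycolysis, 1 point a gene, with dashed lines at the size rule, a dotted line at the median of all counted genes (-0.24) and names for the 13 genes past the size rule. Slc2a6 (4.37) and Gpd2 (2.26) lie far to the right, and the 9 genes that fell lie between -1.37 and -1.03.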

How the data were processed

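RNA was measured in 2 BV2 libraries, 1 unstimulated and 1 after 3 h of LPS, with a strand-specific kit and reads of 76 bases, per the labels' protocols. The authors deposited for each a table of FPKM values with a lower and an upper 95% bound, made with Cufflinks on build mm9, per the submitters' processing notes, with aligner and version not given in the sources used here. A table has 28246 rows, each a RefSeq transcript at a locus. Symbols, but no coordinates, came from a RefSeq table (GRCm38.p6) and were found for 27560 rows (97.6%). Rows with a status other than OK in either library (391) and small RNA rows (712) were left out, rows of a symbol were summed and half-widths combined in quadrature. Ratios use FPKM without the pseudocount of 1, with an interval from both deposited intervals, and none is given where 3 or fewer fragments are implied, read from the width of the interval. Changes are on log2(FPKM + 1), computed from the deposited FPKM, and understate those of low genes.

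With 1 library a group no test was possible, and no p-value is given. The 37 genes, the lists around them and the rules were chosen with earlier results of these data known. All 37 genes are named. Of the wider lists, those past the size rule and the gene with the highest mean FPKM in each are named. Pfkfb1, Rpe, H6pd, Emb and Hif1a were named after their values were seen. Alternatives were the pseudocount (0.1, 5), scaling (TPM, median, quantile), the highest row of each symbol, all rows, no filter or one at 5 FPKM, and a 1.5-fold rule. Promoter windows are of build GRCm38.p6, and no coordinate was converted. Python 3.11.15, pandas 2.3.3, numpy 2.4.6 and matplotlib 3.10.9 were used.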

Additional observations from a re-analysis of the deposited data

How the results depend on the processing

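TPM moved the median change of all genes by -0.21, median scaling by 0.19 and quantile normalisation by 0.12, the last of these not by the same amount for each gene. The share of higher among all called genes was 40.7%, 26.1% with TPM, 54.5% with median scaling, 53.2% with quantile normalisation, 61.9% and 32.3% with pseudocounts of 5 and 0.1 and 31.7% with the 1.5-fold rule. The median change of the 33 genes was 0.32 with median scaling, -0.0298 with quantile normalisation and -0.10 with TPM; relative to the median of all genes it lay between 0.09 and 0.39 in all settings. Over 8 settings, 10 of the 33 kept a positive and 6 a negative change, and 17 changed sign, among them Slc2a1, Hk2, Gpi1, Pkm, Ldha, Tkt and Taldo1. Of 18 step ratios, 7 kept their side of 1 over the 6 settings run for them, which left out the other pseudocounts. On the higher side were hexokinase (1.68 to 2.27), the oxidative pentose arm (1.55 to 2.18), aldolase (1.11 to 1.61), the sum of Pfkfb3 and Pfkfb4 (1.08 to 1.55) and monocarboxylate transport (1.10 to 1.57). On the lower side were the kinases (0.526 to 0.709) and E1 (0.644 to 0.883). The PFKFB sum leaves out Pfkfb1 (3.66 and 3.26 FPKM) and Pfkfb2 (2.05 and 0.179 FPKM). Both read lower with LPS, Pfkfb1 with overlapping intervals. Pgd (1.22 to 1.69) and Pdk1 (-1.56 to -1.10) passed the size rule in all 8. Hk1 missed it with a pseudocount of 5 (0.85), with TPM (0.91) and with its highest row (0.50), Hk3 with TPM (0.92), and Slc16a1 with a pseudocount of 5 (-0.87). So 1 gene of the set rose with TPM, and 1 fell with a pseudocount of 5. In the wider lists 2 rose with a pseudocount of 5 and 7 with a 1.5-fold rule. There 15 fell with a pseudocount of 0.1, 1 with a pseudocount of 5, 18 with TPM, 5 with median scaling, 4 with quantile normalisation, 5 with a filter at 5 FPKM and 25 with a 1.5-fold rule. Slc2a6 (3.86 to 4.59), Gpd2 (1.59 to 2.52) and Gnpda1 (-1.44 to -1.01) passed in all 8, and the other 10 wider genes missed it in at least 1. The cause was not tested. No paired analysis was possible because each group is 1 library, and no library could be left out.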

Other observations

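In the branches around glycolysis the most abundant gene of most lists stayed within a 2-fold change. The mitochondrial pyruvate carrier gene Mpc1 read 341 FPKM without and 335 FPKM with LPS, and the malate dehydrogenase gene Mdh2 365 and 414 FPKM. Psat1, of the serine branch, read 130 and 117 FPKM, and Sord, of the sorbitol branch, 47.6 and 48.9 FPKM. Tigar, which lowers the activator of phosphofructokinase 1, read 18.9 and 15.4 FPKM, and G6pc3, the widely expressed glucose phosphatase, 9.65 and 13.3 FPKM.

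On the deposited scale, where the median change of all counted genes was -0.24, glycogen genes lay mostly lower with LPS. The interval counts here are on that scale only. Of 13 counted, 11 had separate intervals with the LPS library lower (84.6%, beside 48.5% of all counted genes). In 1 it was higher with separate intervals (7.69%, beside 25.2%). By the size rule 2 fell (15.4%, beside 12.4% of all counted genes), a share near the background. The 2 that fell were the phosphorylase kinase subunit genes Phka2, from 9.05 to 3.66 FPKM, and Phkb, from 4.73 to 1.75 FPKM. Gyg, the primer protein of glycogen, read 69.9 and 51.4 FPKM. In mitochondrial pyruvate entry 5 of 8 genes were lower with separate intervals (62.5%, beside 48.5% of all counted genes) and 0 higher (beside 25.2%), and Pdpr, a regulator of the phosphatase that reactivates pyruvate dehydrogenase, fell from 1.82 to 0.385 FPKM. In the list of pentose arm and ribose use, 7 of 10 were lower with separate intervals (70.0%, beside 48.5%), among them Rpe and H6pd. There 1 gene was higher with separate intervals (10.0%, beside 25.2%). Its most abundant gene, Prpsap2, read 27.1 and 16.9 FPKM.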
